A study of Homo sapiens with 8 samples.

Results

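Aminoacyl-tRNA synthetases, the enzymes that join each amino acid to its transfer RNA, were followed in 2 human multiple myeloma cell lines. The list held 38 genes, 20 for cytosolic enzymes, 16 for mitochondrial enzymes and 2 for the scaffold proteins AIMP1 and AIMP2, and a gene entered when a row of the array table carried its symbol. Of the 38 genes, 19 had a named row among the 14884 genes named in the table. They were 18 of the 20 cytosolic enzymes and AIMP1, and all 19 passed the filter on low levels. FARSA, FARSB, AIMP2 and the 16 mitochondrial enzymes had no named row (0 of 16) and were not analysed here, so cytosolic and mitochondrial enzymes could not be compared. The results below are those of cytosolic enzymes, and 2 of these, GARS1 and KARS1, also serve the mitochondrion.

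NCI-H929 and MM1.S are established lines of malignant plasma cells, and each was profiled with a short hairpin against SIRT6 (shSIRT6), a NAD-dependent deacetylase, or with a scramble control hairpin. The 4 groups, NCI-H929 shSIRT6, NCI-H929 scramble, MM1.S shSIRT6 and MM1.S scramble, had 2 arrays each, 8 in all, of the GeneChip Human Gene 2.0 ST type. All cells were grown in RPMI-1640 with serum and added glutamine and all carried a hairpin, so no group shows cells without one. The sources used here give neither the hairpin sequences, the use of clones and the time after delivery, nor whether both arrays of a group stem from separate cultures. The p-values therefore reflect array-to-array spread, which may be technical alone.

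Values are log2 levels, and a log2 difference of 1 is a doubling. RNA of whole cultures was measured, so a lower level in every cell and a loss in some of the cells cannot be told apart. The level of SIRT6 was 6.25 and 6.31 in NCI-H929 shSIRT6, against 6.53 and 6.97 in NCI-H929 scramble. In MM1.S it was 5.60 and 5.78 with shSIRT6, against 6.09 and 5.88 with scramble. The shSIRT6 arrays lay below the scramble arrays in both lines, yet neither difference passed the test. The NCI-H929 difference was −0.47 ± 0.161 (SE, limma adjusted p = 0.276) and the MM1.S difference −0.295 ± 0.161 (SE, limma adjusted p = 0.355). The array median lay between 3.88 and 3.97. Plasma cell markers with a named row, 6 of 9, lay between 7.96 and 11.74 on all arrays. MAF, the translocation partner known for MM1.S, lay between 8.07 and 8.27 in NCI-H929 and between 9.53 and 9.85 in MM1.S. NSD2, a translocation gene of NCI-H929, lay between 9.03 and 9.27 there and between 7.84 and 7.96 in MM1.S. Of the T and NK cell markers, 5 of 8 had a named row, with levels of 3.57 to 5.47. Epithelial markers with a named row were 3 of 4. KRT18 among them lay between 7.73 and 8.14, near the lower plasma cell markers, while KRT8 and EPCAM lay at 5.72 or below. No T and NK cell, monocyte or epithelial marker passed the test in either shSIRT6 comparison.

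Each synthetase recognises its own amino acid and transfer RNA and uses ATP to make the bond that the ribosome later needs. The enzymes fall into classes I and II by the fold of their catalytic domain, and in animal cells several of them sit together in a multisynthetase complex held by scaffold proteins. When amino acids run short, uncharged transfer RNA activates the kinase GCN2, and the transcription factor ATF4 then raises many, but not all, cytosolic synthetase genes together with genes of amino acid synthesis and uptake. Plasma cells make large amounts of immunoglobulin and therefore charge transfer RNA at a high rate. A list of 12 synthetase genes described as targets of ATF4 was used to order the results (AARS1, CARS1, EPRS1, GARS1, IARS1, LARS1, MARS1, NARS1, SARS1, TARS1, WARS1 and YARS1). This list was chosen with earlier results of these data known, so differences between genes on and off it are descriptive. The other 7 members were HARS1, KARS1, QARS1, RARS1, TARS3, VARS1 and AIMP1.

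In MM1.S, 6 of the 19 genes fell with shSIRT6 and 0 rose at an adjusted p below 0.05 (limma, Benjamini-Hochberg over 12734 genes). Of all genes tested, 1.33% passed in either direction, 1.12% lower and 0.204% higher. The 6 genes were SARS1, WARS1, CARS1, GARS1, IARS1 and AARS1, with falls of 1.58-fold to 2.31-fold, and all 6 are on the ATF4 list. The median log2 change of the 18 cytosolic enzymes was −0.50, beside 0.005 over all genes tested.

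SARS1, which charges serine transfer RNA, had a level of 7.01 and 6.93 in shSIRT6 arrays, against 8.20 and 8.16 in scramble arrays. Its log2 change was −1.21 ± 0.0925 (SE, n = 2 each), a 2.31-fold lower level (limma adjusted p = 0.00452), the lowest of the 19. Each shSIRT6 array lay more than 1 log2 unit below each scramble array.

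CARS1, the cysteine enzyme, had 7.64 and 7.62 in shSIRT6 arrays, against 8.37 and 8.44 in scramble arrays, a change of −0.775 ± 0.0930 (limma adjusted p = 0.0169). WARS1, the tryptophan enzyme and a gene also induced by interferon, had 6.11 and 5.93 with shSIRT6, against 6.84 and 6.87 with scramble, a change of −0.835 ± 0.100 (limma adjusted p = 0.0169). Neither gene's groups overlapped. WARS1 was also read by a second, dimmer cluster of probes, which did not show the difference. That cluster lay at 4.31 and 3.99 with shSIRT6 and at 4.30 and 4.06 with scramble, and the mean of both clusters changed by −0.4325 and did not pass.

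GARS1, the glycine enzyme of cytosol and mitochondrion, had 10.50 and 10.62 in shSIRT6 arrays, against 11.35 and 11.28 in scramble arrays. Its change was −0.755 ± 0.0976 (limma adjusted p = 0.0223). IARS1, the isoleucine enzyme of the multisynthetase complex, had 10.09 and 9.96 with shSIRT6, against 10.73 and 10.71 with scramble, a change of −0.695 ± 0.0959 (limma adjusted p = 0.0262). AARS1, the alanine enzyme, had 10.37 on both shSIRT6 arrays, against 11.07 and 10.99 with scramble, a change of −0.66 ± 0.0900 (limma adjusted p = 0.0261). In these 3 genes too, both shSIRT6 arrays lay below both scramble arrays.

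**Figure D1:**
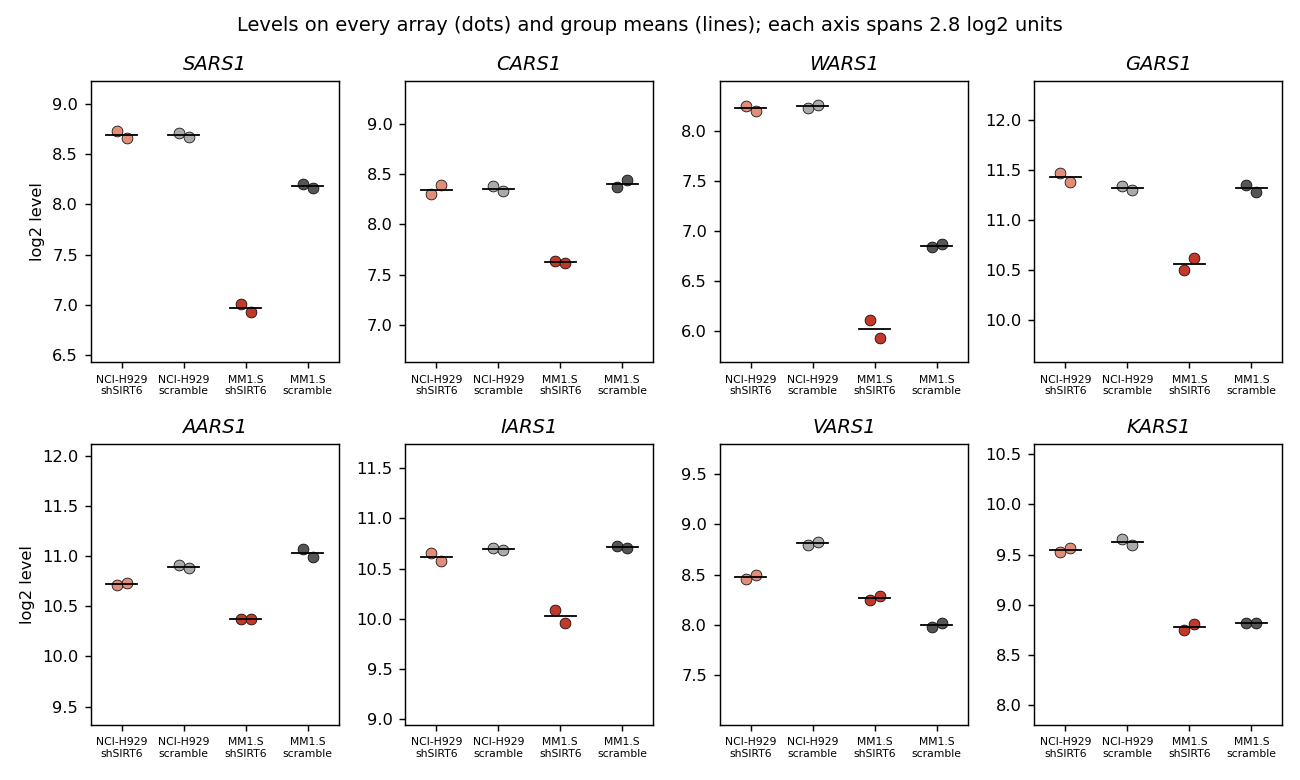
Levels (log2) of the 6 genes that fell in MM1.S and of VARS1 and KARS1, on every array (dots) with the group mean (line). Each panel has its own axis range of the same width, and in the first 6 panels the MM1.S shSIRT6 arrays lie below every other array.

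Upstream sequence of 4 of these 6 genes is shown because GCN2 signalling acts on target promoters through elements bound by ATF4 with C/EBP proteins. The form TGATGNAA, in which N is any base, was searched on both strands (the reverse strand reads TTNCATCA) in the 250 bases before each RefSeq gene start of GRCh38.p14. The sequences are written 5′ to 3′ on the strand of the gene and capitals mark the match.

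AARS1: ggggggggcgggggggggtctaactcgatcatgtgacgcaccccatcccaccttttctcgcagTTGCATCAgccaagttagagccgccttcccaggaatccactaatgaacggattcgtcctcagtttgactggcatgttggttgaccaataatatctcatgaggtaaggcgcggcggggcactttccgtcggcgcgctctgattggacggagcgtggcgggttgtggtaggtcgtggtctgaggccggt
IARS1: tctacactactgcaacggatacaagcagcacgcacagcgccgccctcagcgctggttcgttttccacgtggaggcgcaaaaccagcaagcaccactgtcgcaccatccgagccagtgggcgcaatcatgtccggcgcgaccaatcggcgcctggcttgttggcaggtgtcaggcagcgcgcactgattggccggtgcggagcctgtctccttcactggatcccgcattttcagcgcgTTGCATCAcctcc
GARS1: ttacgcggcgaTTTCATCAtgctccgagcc
SARS1: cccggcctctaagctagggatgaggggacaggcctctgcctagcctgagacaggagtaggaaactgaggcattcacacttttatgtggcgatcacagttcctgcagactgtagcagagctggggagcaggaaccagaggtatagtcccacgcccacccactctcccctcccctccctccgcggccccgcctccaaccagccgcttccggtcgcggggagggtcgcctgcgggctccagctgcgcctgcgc

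AARS1 (chr16:70289507-70289756, minus strand) holds TTGCATCA, which begins 187 bases before the start, and IARS1 (chr9:92293698-92293947, minus strand) holds the same 8 letters 13 bases before it. The stretch of GARS1 (chr7:30594834-30594863, plus strand) holds TTTCATCA, 33 bases before the downstream of its RefSeq starts, while the window of the upstream start holds no match. SARS1 (chr1:109213643-109213892, plus strand, the upstream start), the gene with the lowest change in MM1.S, holds no match to these letters in either of its windows. WARS1 and CARS1 hold no match to the form either.

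Promoters of 15 members were in the table, and 3 of these 15 held the form, beside 3.89% of the 27305 genes with an entry. LARS1, TARS3, VARS1 and YARS1 had no entry. The 3 genes were among the 10 with an entry on the ATF4 list, against 0 of 5 members off it. TGATGCAA, which is contained in the form above, was found in AARS1 and IARS1 and in 0.967% of all genes, and TGANGCAA, which overlaps it, in the same pair and in 3.47% of genes. TGACGCAA occurred in 0 of the 15 and in 0.604% of genes, and the short TGATG in 6 of the 15 and in 33.4% of genes. The motifs were chosen with the expression results known, and a match of letters is a description of the sequence, not a binding site.

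The remaining 6 genes of the ATF4 list had lower values with shSIRT6 in MM1.S that did not pass the adjusted test. MARS1, the methionine enzyme, had 9.31 and 9.27 with shSIRT6, against 9.76 and 9.79 with scramble (−0.485, limma adjusted p = 0.0550). EPRS1, a single protein that charges both glutamate and proline transfer RNA, had 10.86 and 10.82 with shSIRT6, against 11.40 and 11.33 with scramble (−0.525, limma adjusted p = 0.0587). TARS1, the threonine enzyme, had 10.54 and 10.43 with shSIRT6, against 11.05 and 10.95 with scramble (−0.515, limma adjusted p = 0.0598). The arrays of the groups did not overlap in any of these 3 genes.

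LARS1, the leucine enzyme and a sensor of leucine for mTORC1, had 9.57 and 9.38 with shSIRT6, against 10.10 and 9.94 with scramble (−0.545, limma adjusted p = 0.0660). NARS1, the asparagine enzyme, had 11.03 and 11.08 with shSIRT6, against 11.47 and 11.44 with scramble (−0.40, limma adjusted p = 0.0802). YARS1, the tyrosine enzyme, differed by −0.40 (limma adjusted p = 0.129). These groups were also apart, so that all 12 genes of the ATF4 list had both shSIRT6 arrays below both scramble arrays. Across all 19 members the groups were apart with lower values in 15 and with higher values in 2, and the shares over all genes were 26.3% and 24.4%.

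The median change of the 12 genes was −0.6025, with a range of −1.21 to −0.40, and all 12 had an unadjusted p below 0.05. Over the 19 members, 13 were lower at that level and 1 was higher, beside 11.3% and 8.25% of all genes. The 7 members off the list had a median of −0.045 and 0 passed the adjusted test (limma, 1 lower and 1 higher at an unadjusted p below 0.05). The lower of these was HARS1, the histidine enzyme, with 6.64 and 6.44 in shSIRT6 arrays, against 7.08 and 6.90 in scramble arrays (−0.45 ± 0.131, limma adjusted p = 0.134).

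VARS1, the valine enzyme, which binds an elongation factor complex in animal cells, had the highest difference. It had 8.25 and 8.29 in shSIRT6 arrays, against 7.98 and 8.02 in scramble arrays (0.27 ± 0.0892, limma adjusted p = 0.166). Its second cluster gave 8.15 and 8.05 with shSIRT6, against 7.80 and 7.72 with scramble, a difference of 0.34. KARS1, the lysine enzyme of cytosol and mitochondrion, had 8.75 and 8.81 with shSIRT6, against 8.82 on both scramble arrays, and the 95% interval of its difference ran from −0.25 to 0.17. RARS1 (arginine), AIMP1, QARS1 (glutamine) and TARS3, a paralog of the threonine enzyme, differed by −0.045, −0.08, −0.105 and 0.19.

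Within the multisynthetase complex, members on and off the ATF4 list differed in their medians. Of 11 genes listed for the complex, 8 were measured. EPRS1, IARS1, LARS1 and MARS1, which are on the ATF4 list, had a median of −0.535, and 1 of the 4, IARS1, passed. KARS1, QARS1, RARS1 and AIMP1 had a median of −0.0625, and 0 of 4 passed (limma, 0 at an unadjusted p below 0.05). The enzyme classes, with EPRS1 in neither list, had nearly equal medians, −0.485 in class I and −0.4825 in class II. In class I 3 of 9 passed as lower and 8 had a negative sign. In class II 3 of 8 passed as lower and 7 had a negative sign, beside 48.8% of all genes with a negative sign.

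**Figure D2:**
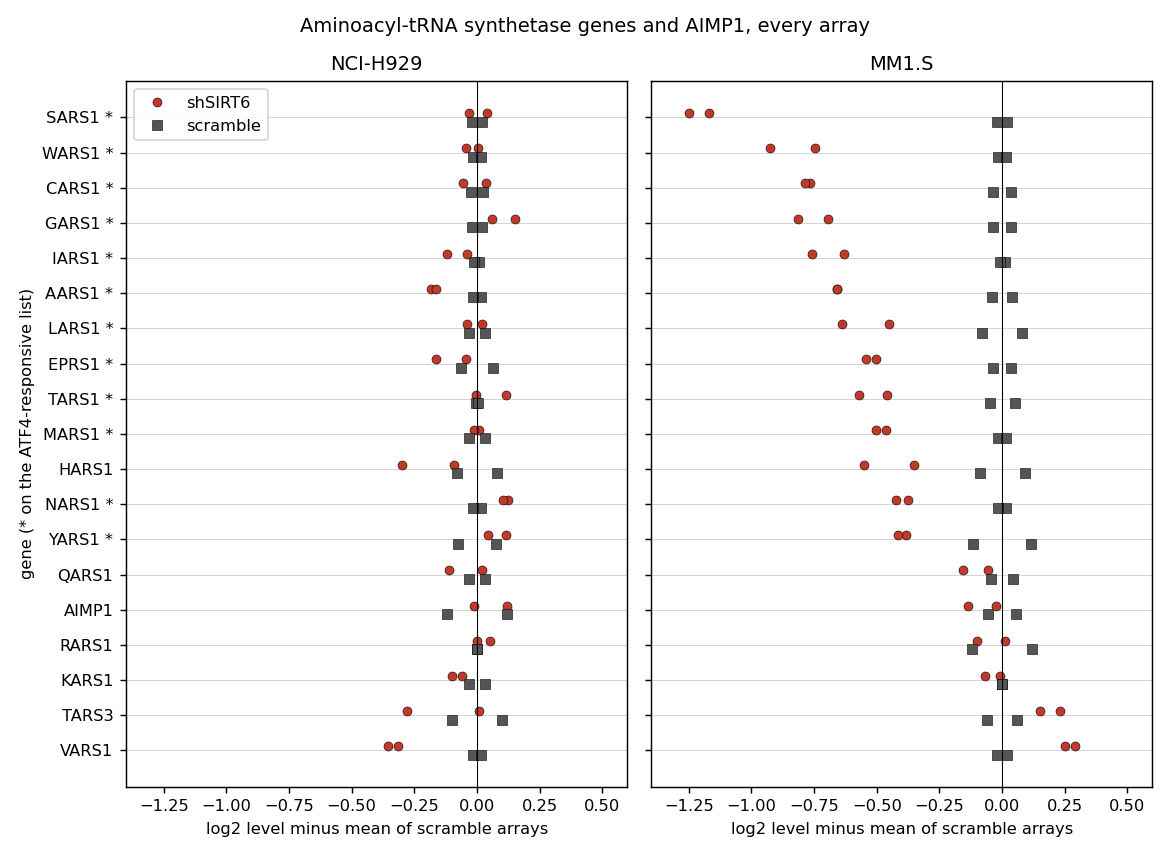
Every array of the 19 genes, as the log2 level minus the mean of the scramble arrays of the same line, for shSIRT6 (circles) and scramble (squares). In MM1.S all 12 genes with an asterisk, those on the ATF4 list, have both circles left of both squares, and in NCI-H929 the circles lie left of the squares without overlap in 5 of the 19 genes and right of them in 2.

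The number of genes called in MM1.S depended on single arrays and on the fit. It was 0 when the 4 MM1.S arrays were fitted alone (limma, 14 at an unadjusted p below 0.05) and 0 without MM1.S scramble replicate 1 or MM1.S shSIRT6 replicate 2, and 1 (SARS1) without MM1.S scramble replicate 2, MM1.S shSIRT6 replicate 1 or either NCI-H929 scramble array, while a prior variance that follows the level called 14 (13 lower, and VARS1 higher). Under all 17 alternatives the 12 genes of the ATF4 list kept a negative sign, at least 11 of them had an unadjusted p below 0.05, and their median stayed between −0.66 and −0.535.

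In NCI-H929, 0 of the 19 genes passed the adjusted test with shSIRT6 (limma, 1 at an unadjusted p below 0.05). Few genes passed anywhere in this comparison, 3 of 12734 or 0.0236% (0.0157% higher and 0.00785% lower), and 9.75% of genes were lower and 4.74% higher at an unadjusted p below 0.05. The median change of the 18 cytosolic enzymes was −0.015, beside −0.045 over all genes tested.

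The gene with the unadjusted p was VARS1, with 8.46 and 8.50 in shSIRT6 arrays, against 8.80 and 8.83 in scramble arrays (−0.335 ± 0.0892, limma adjusted p = 0.219). Its second cluster gave a difference of −0.32. With a prior variance that follows the level, VARS1 passed in NCI-H929 as well.

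The 6 genes that fell in MM1.S had differences between −0.175 and 0.105 here. SARS1 had 8.73 and 8.66 in shSIRT6 arrays, against 8.71 and 8.67 in scramble arrays, and the 95% interval of its difference of 0.005 ran from −0.21 to 0.22. CARS1 had 8.30 and 8.39 with shSIRT6, against 8.38 and 8.33 with scramble. WARS1 had 8.25 and 8.20 with shSIRT6, against 8.23 and 8.26 with scramble. The groups overlapped in each of these 3 genes.

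GARS1 had 11.47 and 11.38 in shSIRT6 arrays, against 11.34 and 11.30 in scramble arrays, a difference of 0.105 with higher values on both shSIRT6 arrays. IARS1 had 10.66 and 10.58 with shSIRT6, against 10.71 and 10.69 with scramble. AARS1 had 10.71 and 10.73 with shSIRT6, against 10.91 and 10.88 with scramble (−0.175, limma adjusted p = 0.411). Thus 2 of the 6 genes had lower values with no overlap, and neither passed.

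NARS1 had 11.89 and 11.87 in shSIRT6 arrays, against 11.78 and 11.75 in scramble arrays (0.115, limma adjusted p = 0.582). HARS1 had 7.09 and 7.30 with shSIRT6, against 7.31 and 7.47 with scramble (−0.195, limma adjusted p = 0.523). MARS1 differed by 0.00. In all, 5 of the 19 genes were lower and 2 higher without overlap, beside 30% and 16.6% of all genes. The ATF4 list had a median of −0.005 and the other 7 members one of −0.08.

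The change with shSIRT6 was then compared between the lines, as the change in NCI-H929 minus that in MM1.S, which uses the same arrays as the comparisons above. It passed for 1 of 19 genes, SARS1, with a difference of 1.215 ± 0.131 (limma adjusted p = 0.0275) and a 95% interval of 0.91 to 1.52. Of all genes tested, 0.204% passed, 0.196% with a positive and 0.00785% with a negative difference. The SARS1 call was lost without any one of the 8 arrays (limma adjusted p between 0.111 and 0.171), while its value stayed between 1.175 and 1.255.

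GARS1 followed with 0.86 (limma adjusted p = 0.0773), CARS1 with 0.765 (0.0912) and WARS1 with 0.815 (0.0968), and these differences did not pass. With the mean of both WARS1 clusters the difference was 0.515. The difference was positive at an unadjusted p below 0.05 in all 12 ATF4 targets, against 5.73% of all genes, with a median of 0.5525 and a lowest value of 0.42 in EPRS1. The other 7 members had a median of 0.06, and all genes tested had one of −0.035.

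VARS1 was the member with a difference of the opposite sign and an unadjusted p below 0.05. Its change was −0.335 in NCI-H929 and 0.27 in MM1.S, and the difference of −0.605 ± 0.126 did not pass (limma adjusted p = 0.138). Of all genes, 8.11% had a negative difference at that unadjusted level. With a prior variance that follows the level, 13 of the 19 differences passed.

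**Figure D3:**
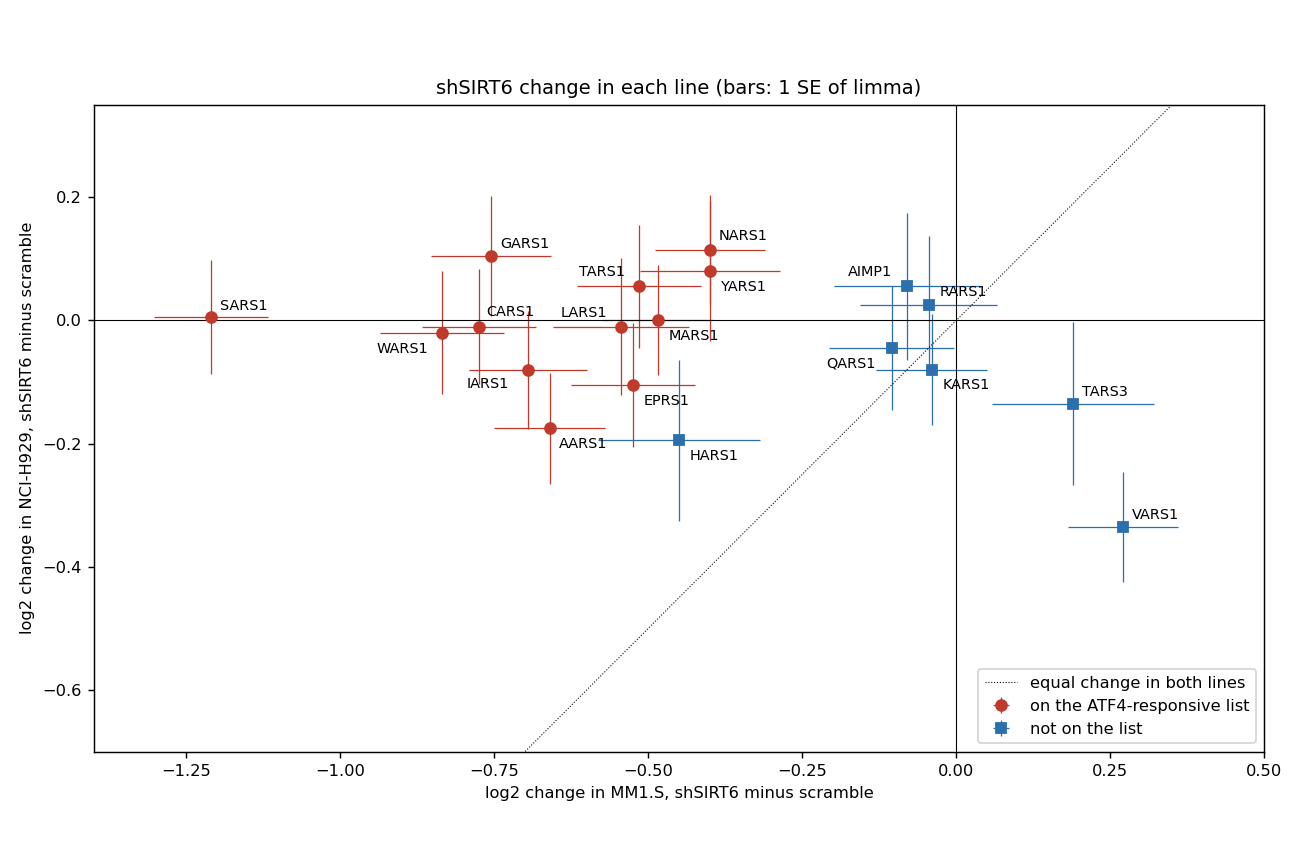
Change with shSIRT6 in NCI-H929 (vertical axis, log2) against the change in MM1.S (horizontal axis, log2) for the 19 genes, with bars of 1 SE. The 12 genes of the ATF4 list (red circles) lie at −0.40 or below in MM1.S and between −0.175 and 0.115 in NCI-H929, and VARS1 lies in the lower right corner.

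With the scramble hairpin, 9 of the 19 genes differed between the lines, 8 higher and 1 lower in NCI-H929 than in MM1.S. The lines differed widely, with 38.3% of all genes passing (20% higher and 18.3% lower), so the members' count is close to this background. At an unadjusted p below 0.05, 9 members were higher and 2 lower, beside 24.2% and 21.8% of all genes, and the arrays of the lines were apart with higher values in 11 members and lower values in 4, beside 36% and 31.9%. The comparison uses the scramble arrays already described, and the median difference of the cytosolic enzymes was 0.2725, beside 0.03 over all genes.

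WARS1 had the highest difference, 8.23 and 8.26 in NCI-H929 scramble, against 6.84 and 6.87 in MM1.S scramble (1.39 ± 0.100, 2.62-fold, limma adjusted p = 5.00e-05). Its second cluster differed by 0.88. VARS1 had 8.80 and 8.83 in NCI-H929, against 7.98 and 8.02 in MM1.S (0.815, limma adjusted p = 0.000332). KARS1 had 9.66 and 9.60 in NCI-H929, against 8.82 on both MM1.S arrays (0.81, limma adjusted p = 0.000364).

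RARS1, the arginine enzyme of the complex, had 10.29 on both NCI-H929 arrays, against 9.65 and 9.41 in MM1.S (0.76, limma adjusted p = 0.00132). SARS1 had 8.71 and 8.67 in NCI-H929, against 8.20 and 8.16 in MM1.S (0.51, limma adjusted p = 0.00361). EPRS1 was the gene with the lower level, 10.75 and 10.62 in NCI-H929, against 11.40 and 11.33 in MM1.S (−0.68 ± 0.101, limma adjusted p = 0.00136). The arrays of the lines did not overlap in any of these 6 genes.

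NARS1 (0.31), HARS1 (0.40) and LARS1 (0.33) passed more narrowly (limma adjusted p = 0.0273, 0.0456 and 0.0496). HARS1 and LARS1 each lost the call in 10 of 17 alternatives and NARS1 in 6, among them the fits without any one of the 4 scramble arrays. Of the 6 genes that fell with shSIRT6 in MM1.S, GARS1, IARS1, CARS1 and AARS1 differed between the lines by 0.005, −0.02, −0.05 and −0.135 and did not pass, and the 95% interval for GARS1 ran from −0.22 to 0.23. The median over the ATF4 list was −0.0075 and over the other 7 members 0.40.

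**Figure D4:**
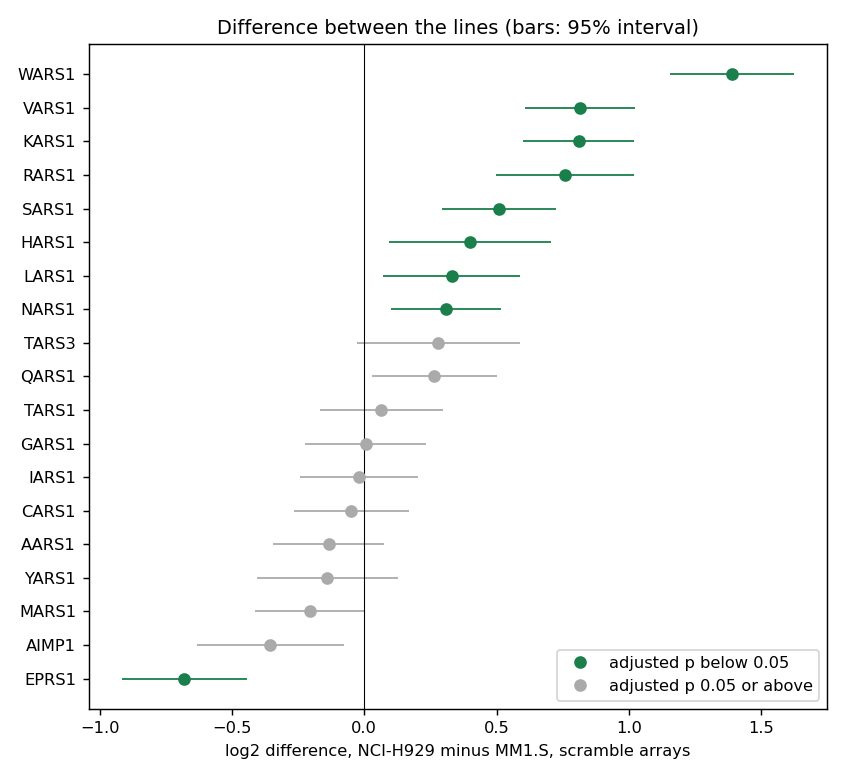
Difference between the lines with the scramble hairpin (NCI-H929 minus MM1.S, log2) for each of the 19 genes, with the 95% interval. WARS1, VARS1, KARS1 and RARS1 lie highest, EPRS1 lies lowest, and green points have an adjusted p below 0.05.

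Genes that act beside the synthetases were described with the same fits. Of 29 listed genes of ATF4 and the amino acid response outside the synthetases, 21 were measured. In MM1.S 14 fell and 0 rose with shSIRT6, beside 1.12% and 0.204% of all genes, and the median was −0.915. DDIT4, an inhibitor of mTORC1, changed by −1.425 (limma adjusted p = 0.00377), ASNS, which makes asparagine, by −1.31 (0.00377), SESN2, a leucine sensor, by −1.205 (0.00599) and PSAT1, of serine synthesis, by −0.99 (0.00806). The level of ATF4 itself differed by −0.225 and did not pass (limma adjusted p = 0.233). DDIT3, a stress transcription factor, changed by −1.195 in MM1.S (limma adjusted p = 0.0107). In NCI-H929, 2 of the 21 rose and 0 fell, beside 0.0157% and 0.00785% of all genes. The 2 were DDIT3, by 1.295, and SESN2, by 1.03 (limma adjusted p = 0.0484 for both), and the list median was 0.115. No gene at all was called in NCI-H929 in 15 of 17 alternatives, each fit without 1 array among them, so these 2 calls were lost there. In MM1.S, 4 of 17 alternatives called no gene, among them the MM1.S arrays fitted alone and the replicate block, and the 14 calls were lost there. Every fit without 1 of the MM1.S arrays lost all or some of the 14. The difference between the lines passed for 6 of the 21, all positive, beside 0.196% of all genes. These 6 calls were lost with the replicate block, which called 0 genes for the difference. Each fit without 1 array lost at least 1 of them, leaving aside the fit without NCI-H929 scramble replicate 2, for which this is not known here.

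**Figure D5:**
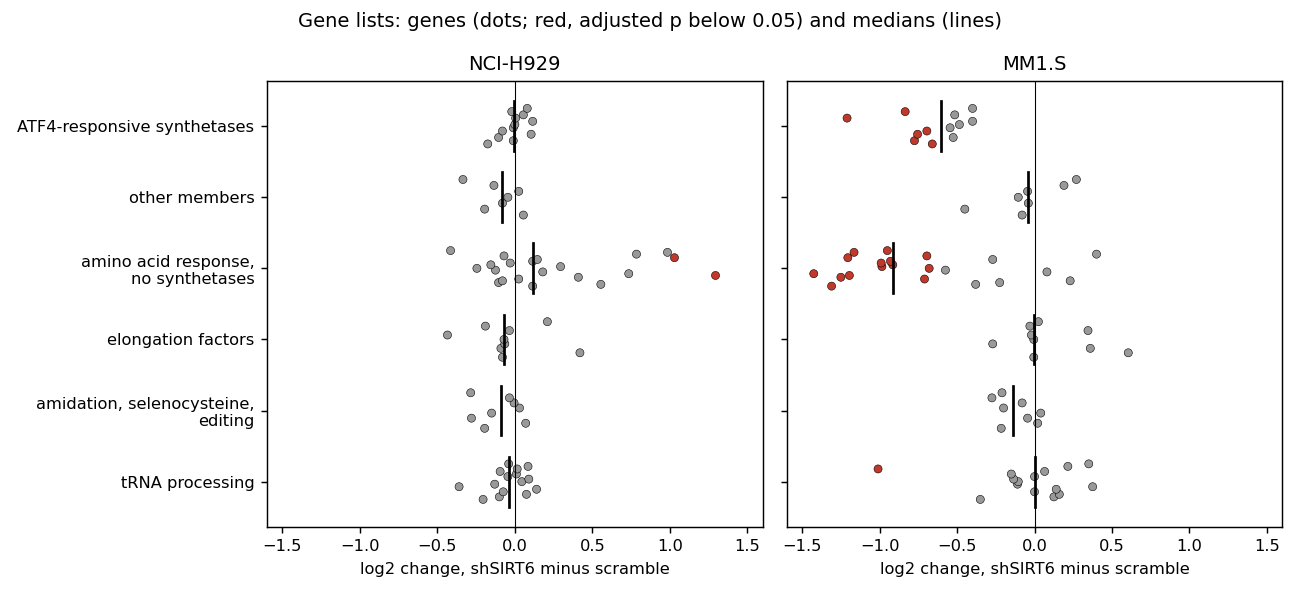
Change with shSIRT6 (log2) of every measured gene of 6 lists in NCI-H929 and MM1.S, with the list median as a line and genes of adjusted p below 0.05 in red. In MM1.S the ATF4-responsive synthetases and the other amino acid response genes lie mostly below 0, with medians of −0.6025 and −0.915, and the other 4 medians lie between −0.14 and 0.00.

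Lists for other steps of tRNA use held 0 called genes in NCI-H929 and 1 in MM1.S by limma. Of 14 translation elongation factor genes, 9 were measured and 0 passed in either line by limma. The median was −0.07 in NCI-H929 and −0.005 in MM1.S. At an unadjusted p below 0.05 (limma), 2 were higher and 1 lower in MM1.S, beside 8.25% and 11.3% of all genes. In NCI-H929 0 were higher and 1 lower at that level, beside 4.74% and 9.75%. EEF1D, a subunit of the exchange factor of elongation factor 1A, differed by 0.36 in MM1.S (limma adjusted p = 0.113). For tRNA-dependent amidation, selenocysteine insertion and editing, 8 of 15 genes were measured and 0 passed in either line by limma, where 0 in NCI-H929 and 1 in MM1.S had an unadjusted p below 0.05, with medians of −0.0925 in NCI-H929 and −0.14 in MM1.S. None of the 20 listed amino acid transporter genes had a named row (0 of 20).

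Of 25 genes of tRNA processing and transport, 15 were measured, with medians of −0.04 in NCI-H929 and 0.00 in MM1.S. TSEN15, a subunit of the endonuclease that removes introns from transfer RNA precursors, was the 1 gene that passed. In NCI-H929 it had 7.99 and 7.97 with shSIRT6, against 7.98 and 7.95 with scramble. In MM1.S it had 8.45 and 8.36 with shSIRT6, against 9.48 and 9.35 with scramble (−1.01, limma adjusted p = 0.00954). The difference between the lines was 1.025 (limma adjusted p = 0.0498). With the replicate block 0 genes were called in MM1.S and for the difference, so both TSEN15 calls were lost there. The MM1.S call was also lost when the MM1.S arrays were fitted alone. It was lost as well without MM1.S scramble replicate 1 or MM1.S shSIRT6 replicate 2. The call for the difference lay just under the threshold of 0.05, and its state in the fits without 1 array is not given here.

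Markers of other cell types were set beside the MM1.S result. The summed log2 level of the 5 T and NK cell markers ran from 21.53 to 22.12 in MM1.S shSIRT6 and from 21.52 to 21.64 in MM1.S scramble, and that of the 3 monocyte markers from 10.84 to 11.14 in MM1.S shSIRT6 and from 9.59 to 10.43 in MM1.S scramble. That of the 3 epithelial markers ran from 16.23 to 17.18 in MM1.S shSIRT6 and from 16.05 to 16.18 in MM1.S scramble. DCN, the 1 stromal marker with a named row, which lay below the filter, ran from 2.20 to 2.33 in MM1.S shSIRT6 and from 2.06 to 2.11 in MM1.S scramble. The monocyte and epithelial sums and DCN thus did not overlap in MM1.S, where 24.4% of single genes tested were higher without overlap. In NCI-H929 the epithelial sum ran from 16.84 to 17.38 with shSIRT6 and from 16.52 to 16.68 with scramble. DCN ran from 2.32 to 2.38 against 1.99 to 2.09 there. The T and NK cell sum ran from 22.8 to 22.84 against 21.08 to 21.74. The monocyte sums overlapped in NCI-H929 (10.66 to 11.35 against 10.16 to 10.8). In MM1.S CSF1R, a receptor of monocytes, differed by 0.565 (limma adjusted p = 0.109) and EPCAM, an epithelial adhesion protein, by 0.37 (limma adjusted p = 0.177). The sum of the 6 plasma cell markers ran from 60.38 to 60.42 in MM1.S shSIRT6 and from 60.40 to 60.58 in MM1.S scramble. Among the plasma cell markers SDC1, a surface proteoglycan, was higher with shSIRT6 in MM1.S by 0.52 (limma adjusted p = 0.0461). The SDC1 call was lost when the MM1.S arrays were fitted alone and with the replicate block. It was also lost without MM1.S scramble replicate 1, either MM1.S shSIRT6 array or either NCI-H929 scramble array. Of the other plasma cell markers, the transcription factor IRF4 differed by −0.325 (limma adjusted p = 0.121) and CD38 by −0.275 (limma adjusted p = 0.256), and 4 of the 6 had a negative sign. The part of these marker differences in the synthetase result was not tested.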

How the data were processed

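RNA of 8 arrays was compared. The deposited values are log2 levels, 1 per transcript cluster, made with RMA and the Transcriptome Analysis Console on hg19, per the submitters' processing notes. The sources used here name no versions, RMA variant or scan dates. RMA normalizes arrays to a common distribution, so a change shared by all genes would not show. Of 48226 clusters, 16098 carried 1 symbol in the platform annotation, 0 carried several and 32128 are unnamed here. No other sample columns were present (0).

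Per gene, the cluster with the highest mean was kept (779 genes had several). Testing was limited to means over the 30th percentile, log2 3.045. limma 3.58.1 in R 4.3.3 (lmFit, eBayes) fitted 4 group means to the 8 arrays, with 4 residual and 3.43 prior degrees of freedom. A call needed an adjusted p below 0.05 (Benjamini-Hochberg) over 12734 genes. SE and intervals are limma's. An exact permutation test of 2 against 2 arrays cannot go below p = 0.333, two-sided, so the number of arrays limits the precision. The code was tested on simulated data. At most 1.96% of values were equal between any 2 arrays to 2 decimals, so no array was taken for a duplicate.

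Values on every array are given for members called in a comparison or of lowest p, and other members by difference or count. From other lists, up to 4 genes of lowest p are named. ATF4, the elongation factors and RPP25 compared between the lines and the markers are named outside this rule, after their values were seen. The members and lists were chosen with earlier results of these data known. Alternatives changed the cluster rule, filter, normalization, variance prior, arrays in the fit, replicate block and each array left out in turn. Promoters are from RefSeq, GRCh38.p14.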

Additional observations from a re-analysis of the deposited data

Results flagged for a closer look

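SARS1, the serine enzyme, is listed because its change with shSIRT6 differed between the lines by a test of the difference itself. The log2 change was 0.005 in NCI-H929 and −1.21 in MM1.S, and the difference was 1.215 ± 0.131 (limma adjusted p = 0.0275, SE). The groups behind each change hold 2 arrays, and the call was lost without any one of the 8 arrays, although the value then stayed between 1.175 and 1.255. The cause of the difference was not tested.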

How the results depend on the processing

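The 6 genes called in MM1.S became 10 with a stricter filter on dim genes and 14 with a prior variance that follows the level, and 0 when the fit held the MM1.S arrays alone (limma, 14 at an unadjusted p below 0.05). Leaving out 1 array gave 0 to 6. In NCI-H929 the count of 0 became 1 with the prior variance that follows the level. For the difference of the changes the count of 1 became 13 with that prior and 0 in every fit without 1 array (limma, 11 to 13 at an unadjusted p below 0.05). The replicate block called 0 members in MM1.S and 0 for the difference (limma, 14 and 13 at an unadjusted p below 0.05). Same-numbered arrays of a line did not vary together (r = 0.0767 in MM1.S and −0.00108 in NCI-H929), so the numbers were not taken as pairs. Over all genes the count went with the level-following prior to 953 in MM1.S (169 in the reported fit), to 194 in NCI-H929 (3) and to 430 for the difference (26). With the stricter filter it was 314 in MM1.S, and with the replicate block 0 in both lines and for the difference (limma, 2444, 1806 and 1704 at an unadjusted p below 0.05). Without 1 array it was 0 to 84 in MM1.S, 0 in each such fit in NCI-H929 (limma, 1184 to 1820 at an unadjusted p below 0.05) and 2 to 6 for the difference.

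In MM1.S the SARS1 call was lost in 4 of 17 alternatives, those of CARS1, GARS1, AARS1 and IARS1 in 8 and that of WARS1 in 9. The median of the cytosolic enzymes stayed between −0.55 and −0.455 in MM1.S, and in NCI-H929 it lay between −0.035 and 0.0617, with the sign turned by quantile (0.0428) and cyclic loess (0.0617) normalization and without NCI-H929 shSIRT6 replicate 2 (0.0075). Between the lines 6 to 13 members were called, against 9. No member named here turned its sign in a called comparison. Without 1 array, the lone array of that group was assumed to vary like the others. No scanner intensities were used here, so signal over background is unknown, that of the dim second cluster of WARS1 included.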

Other observations

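With the scramble hairpin, 4 of the 9 measured elongation factor genes differed between the lines and all 4 were higher in NCI-H929. EEF1A2, the tissue-restricted form of elongation factor 1A, was higher by 2.37 (limma adjusted p = 0.000182), EIF5A2 by 1.03 (0.000169), EEF1G, a partner of VARS1 in the elongation factor 1 complex, by 0.735 (0.000793) and EEF2, the translocase of the ribosome, by 0.615 (0.00126). Over all genes 20% were higher in NCI-H929. RPP25, a subunit of RNase P, which trims transfer RNA precursors, was higher by 1.695 in NCI-H929 (limma adjusted p = 0.000231), and TSEN15 had a difference of −1.45 (3.36e-05).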
